A study of Rattus norvegicus with 372 samples.

Results

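Endoplasmic reticulum (ER) chaperones fold and modify the proteins that a hepatocyte secretes, and their genes are among the classic targets of the unfolded protein response (UPR). In this response unfolded proteins draw the chaperone BiP away from 3 membrane sensors, Perk, Ire1 and Atf6, which then drive transcription through Atf4, spliced Xbp1 and cleaved Atf6. The genes followed here were 10 named targets of this response: Hspa5, Hyou1, Dnajc3, Creld2, Pdia4, Dnajb9, Sdf2l1, Manf, Herpud1 and Xbp1. They were taken by gene symbol, with the counts of all probes of a symbol added. Of the 10 genes, 6 had a probe among the 20946 gene symbols of the whole transcriptome (WT) assay and 5 among the 2604 symbols of the S1500+ surrogate (ST) assay. Dnajb9, Sdf2l1, Pdia4 and Manf are not analysed here. Hspa5 encodes BiP, the Hsp70 chaperone of the ER lumen. Hyou1 encodes an ER relative of Hsp70 that serves BiP as a nucleotide exchange factor. Dnajc3 encodes a J-domain co-chaperone of BiP that also restrains Perk. Creld2 encodes a secreted ER stress protein with disulfide isomerase activity. Herpud1 encodes a membrane protein of ER-associated degradation, and Xbp1 encodes the transcription factor that Ire1 activates by splicing. Xbp1 was read by 1 probe in each assay, and these counts do not tell its spliced from its unspliced form.

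The samples were primary hepatocytes of male Wistar rats, held in a collagen sandwich and treated for 24 h. TempO-Seq, an assay in which pairs of detector oligos are ligated on their target RNA and counted, was run on cell lysates. There were 14 chemicals, each at a low and a high concentration in 0.5% DMSO, next to a vehicle control (DMSO alone) and medium alone. Every culture shared William's medium E with insulin, dexamethasone and EGF. Each of the 2 batches used the hepatocytes of 1 rat, so the 3 wells of a treatment in a batch are technical, and the p-values measure the spread between wells and not between animals. Vehicle and medium alone had 3 wells each in batch 1 and 6 wells each in batch 2. Total counts per well in the WT assay ran from 2709504 to 8948654 in batch 1 and from 2289425 to 8975207 in batch 2. Differences are log2 fold changes (L2FC) from vehicle of the same batch, given with their standard error (SE). A gene is called higher or lower where its adjusted p was below 0.05 in both batches with the same sign. In batch 1, ketoconazole, WY14643, acetaminophen, indomethacin, sulfasalazine and chloramphenicol were on a plate without vehicle wells, so plate and treatment cannot be told apart there. In batch 2 both plates held vehicle wells, and between these plates edgeR called 0 of 10191 genes. The closest among the 6 was Herpud1, whose L2FC between the plates was 0.47 (unadjusted p = 1.3e-04, adjusted p = 0.097).

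Hepatocyte markers were high in every vehicle well, with 7 of 8 listed genes present and a summed level of 37578 to 44829 CPM (counts scaled to the same total in every well). Endothelial markers summed to at most 3.37 CPM in vehicle wells, and Kupffer and leukocyte markers to 60.5 to 123 CPM. Cholangiocyte markers summed to 33.1 to 48.98 CPM. Stellate and fibroblast markers differed between the rats, at 108.6 to 168 CPM in batch 1 and 35 to 50.8 CPM in batch 2. Within a well, fewer cells of a type and less RNA per cell cannot be told apart.

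The promoters of the measured genes are shown because they hold the sites through which this response is known to act. The genes were taken as targets of the response, so these sites are a description of them and not a finding. The ER stress response element (ERSE, the letters CCAAT and CCACG with 9 bases of any kind between them) and its short form (ERSE-II, ATTGG and CCACG with 1 base between them) are the sites at which Atf6 and Xbp1 are known to act with NF-Y. The 200 bases before the RefSeq start of transcription (build GRCr8) are given below for each measured gene, 5′ to 3′ on the strand of the gene, with exact ERSE or ERSE-II matches of either strand in capitals.
Hspa5, chr3:38452816-38453015, plus strand: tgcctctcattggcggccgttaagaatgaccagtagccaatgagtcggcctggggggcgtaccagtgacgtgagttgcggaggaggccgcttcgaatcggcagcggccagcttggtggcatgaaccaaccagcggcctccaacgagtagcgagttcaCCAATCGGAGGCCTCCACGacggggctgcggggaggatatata
Hyou1, chr8:53602682-53602881, plus strand, the first of 2 listed starts: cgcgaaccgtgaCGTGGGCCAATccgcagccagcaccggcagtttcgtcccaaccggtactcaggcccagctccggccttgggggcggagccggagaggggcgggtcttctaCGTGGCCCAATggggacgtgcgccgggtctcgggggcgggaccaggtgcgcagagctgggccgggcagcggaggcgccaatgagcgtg
Dnajc3, chr15:102432467-102432666, plus strand: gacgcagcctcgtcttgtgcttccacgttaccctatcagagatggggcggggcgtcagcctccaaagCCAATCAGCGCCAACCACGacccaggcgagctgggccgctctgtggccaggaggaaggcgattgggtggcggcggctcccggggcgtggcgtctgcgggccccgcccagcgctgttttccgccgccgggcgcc
Creld2, chr7:121789184-121789383, plus strand: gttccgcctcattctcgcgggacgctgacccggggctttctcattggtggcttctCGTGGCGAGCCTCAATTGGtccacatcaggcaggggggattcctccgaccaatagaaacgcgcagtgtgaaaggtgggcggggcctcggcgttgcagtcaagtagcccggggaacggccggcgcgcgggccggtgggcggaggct
Herpud1, chr19:10614708-10614907, minus strand: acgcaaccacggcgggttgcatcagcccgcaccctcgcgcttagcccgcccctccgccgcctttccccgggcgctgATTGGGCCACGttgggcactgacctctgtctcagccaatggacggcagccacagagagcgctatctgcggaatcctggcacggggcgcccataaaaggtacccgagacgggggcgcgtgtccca
Xbp1, chr14:84604423-84604622, plus strand: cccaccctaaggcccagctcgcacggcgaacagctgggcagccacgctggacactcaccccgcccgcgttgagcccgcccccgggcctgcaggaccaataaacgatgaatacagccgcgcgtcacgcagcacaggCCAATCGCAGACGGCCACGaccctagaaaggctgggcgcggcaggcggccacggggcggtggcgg

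Each of the 6 promoters printed held at least 1 match, while the promoter of the second listed Hyou1 start held none. Hspa5 had an ERSE 43 to 25 bases upstream of the start, and Xbp1 had one 65 to 47 bases upstream. Dnajc3 had an ERSE 133 to 115 bases upstream, and Creld2 had one on the opposite strand, 145 to 127 bases upstream. Herpud1 had an ERSE-II 124 to 114 bases upstream. Hyou1 had 2 ERSE-II, both on the opposite strand, 188 to 178 and 88 to 78 bases upstream. The UPR element TGACGTGG was also found 191 bases upstream of Hyou1, where it overlaps the first ERSE-II. Over the 33469 RefSeq promoters searched, each from 250 bases before to 50 after a start, 0.117% held an ERSE or ERSE-II and 0.595% held TGACGTGG. The promoters of Dnajb9, Sdf2l1 and Pdia4 held no exact match in this window, which says only that these letters are not there. No promoter was read for Manf.

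**Figure D1:**
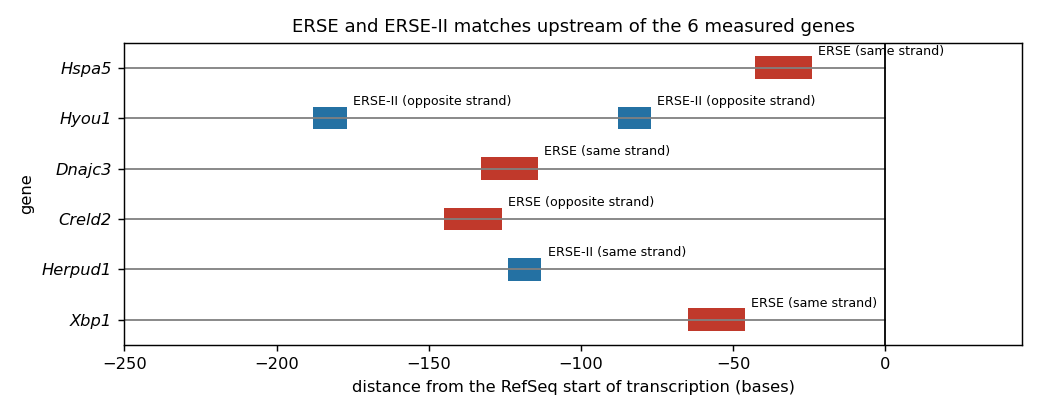
Exact ERSE (red) and ERSE-II (blue) matches upstream of the 6 measured genes, with the distance from the RefSeq start of transcription in bases on the x axis and 1 row per gene. The matches lie between 188 and 25 bases upstream of the start, and the strand of each relative to its gene is written beside it.

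Over the 14 high concentrations and 6 genes there were 84 gene and treatment pairs, of which 25 were called higher and 10 lower. Over all 10191 genes tested, 14.3% of such pairs were called higher and 14% lower. Dnajc3 was called most often, higher in 8 treatments and lower in 1. Its main probe averaged 6439 counts a well, against 170 for Hspa5, so smaller changes could pass. Its higher calls with acetaminophen, caffeine, sulfasalazine, valproic acid and WY14643 were lost when an absolute L2FC of at least 1 was also asked for. Hyou1 was higher in 5 and lower in 1, and Creld2 was higher in 4 and lower in 1. Hspa5 was higher in 4 treatments. Herpud1 was called in both directions, higher in 4 and lower in 3. Xbp1 was called lower in 4 treatments. In acetaminophen and valproic acid, 2 of the 4, other genes of the group were called higher. Xbp1 was called higher in 0 of 28 treatments by edgeR, and the count was also 0 at an unadjusted p under 0.05 in both batches and with DESeq2.

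**Figure D2:**
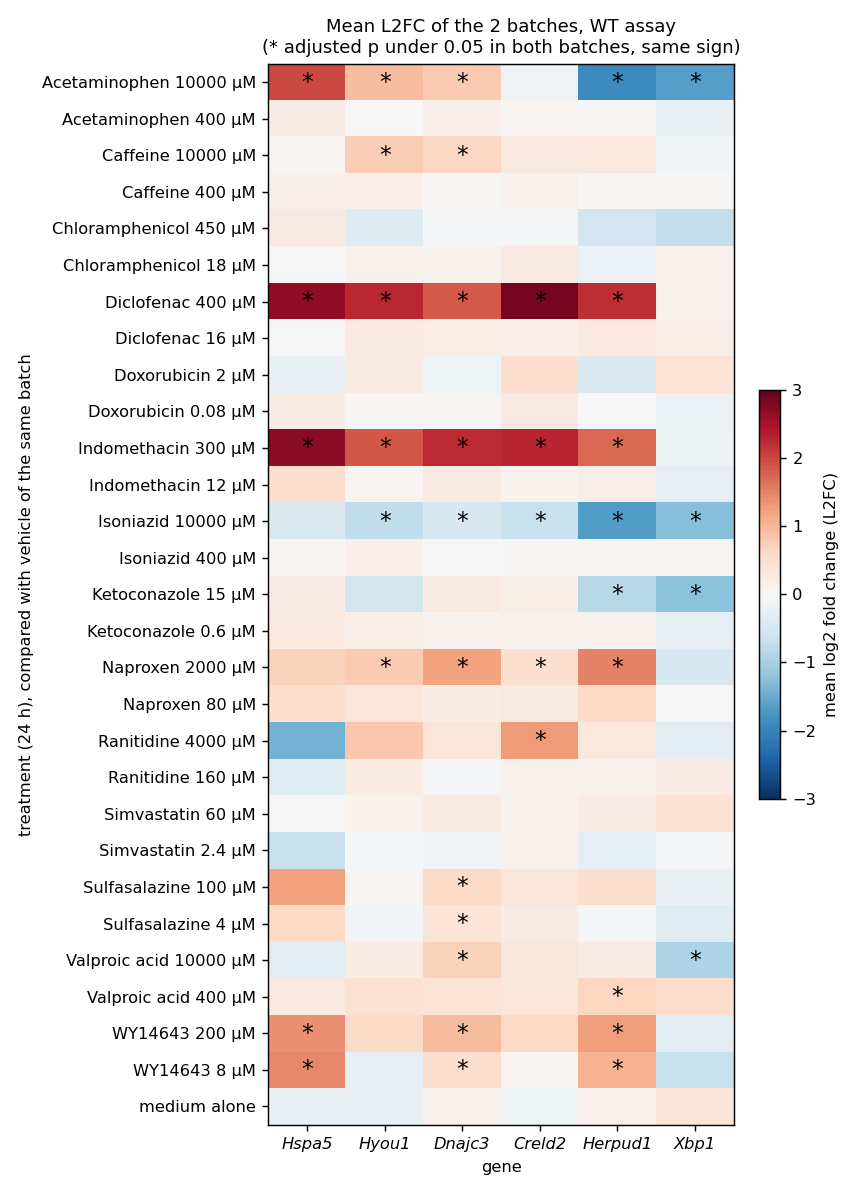
L2FC from vehicle in the WT assay, as the mean of the 2 batches, for the 6 measured genes (columns) in the 28 treatments and medium alone (rows), from blue (lower) to red (higher). Stars mark pairs called in both batches with the same sign, and the rows of diclofenac 400 µM and indomethacin 300 µM hold 5 red stars each while isoniazid 10000 µM holds 5 blue ones.

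Diclofenac, a non-steroidal anti-inflammatory drug (NSAID), gave the largest median L2FC of the 28 treatments. At 400 µM, 5 of the 6 genes were called higher, against 25.2% of all genes, and the median L2FC of the 6 was 2.24 against 0.04 over all genes. Creld2 stood at 88.5, 89.2 and 101 CPM in the batch 1 vehicle wells and at 827, 614 and 751 CPM with diclofenac. In batch 2 its vehicle wells ran from 72.3 to 89.3 CPM with a median of 74.2, and its diclofenac wells read 552, 574 and 612 CPM. Every diclofenac well was thus far above every vehicle well, with an L2FC of 2.93 ± 0.16 (SE, adjusted p = 2.3e-25) in batch 1 and 2.79 ± 0.10 (adjusted p = 6.8e-37) in batch 2.

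Hspa5 read 23.7, 19.5 and 30.2 CPM in the vehicle wells of batch 1 and 133, 126 and 86.3 CPM with diclofenac 400 µM. In batch 2 the vehicle wells lay between 5.18 and 14.7 CPM (median 11), and the diclofenac wells read 142, 88.1 and 84.1 CPM. The treated level was much alike in both batches while the vehicle level differed, and the L2FC was 2.18 ± 0.44 (adjusted p = 1.5e-05) and 3.15 ± 0.42 (adjusted p = 4.5e-10). Hyou1, which serves BiP, rose from 77.6, 90.7 and 68.4 CPM to 364, 386 and 458 CPM in batch 1. In batch 2 it rose from 76.7 to 107 CPM (median 86.5) to 433, 447 and 488 CPM. Its L2FC of 2.30 ± 0.26 (adjusted p = 7.4e-12) and 2.23 ± 0.14 (adjusted p = 5.6e-24) was nearly equal in both rats. The co-chaperone Dnajc3 rose from 763, 799 and 932 CPM to 3877, 3189 and 3597 CPM in batch 1, and from 615 to 682 CPM (median 640) to 2064, 2245 and 2218 CPM in batch 2. Its L2FC was 2.05 ± 0.13 (adjusted p = 3.2e-22) and 1.64 ± 0.10 (adjusted p = 2.5e-25).

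Herpud1 rose with the chaperones under diclofenac 400 µM. Its vehicle wells read 637, 758 and 530 CPM in batch 1 and 431 to 698 CPM (median 564.5) in batch 2, and its diclofenac wells read 2763, 3127 and 2896 CPM and 3013, 3025 and 3123 CPM. The L2FC was 2.13 ± 0.18 (adjusted p = 4.2e-17) and 2.30 ± 0.11 (adjusted p = 5.7e-32). Xbp1 was not called. Its diclofenac wells at 72.8, 70.5 and 78.1 CPM lay within the batch 1 vehicle wells of 62.2, 87.8 and 58.4 CPM, and its batch 2 wells at 103, 83.9 and 89.9 CPM overlapped vehicle wells of 60.7 to 87.8 CPM. The L2FC of Xbp1 was 0.04 ± 0.34 (adjusted p = 0.94) and 0.22 ± 0.25 (adjusted p = 0.43). In the ST assay, which read the same lysates, the Xbp1 wells did not overlap. They stood at 215.7, 243.6 and 272.9 CPM against vehicle wells of 166.7 to 173.5 CPM in batch 1, and at 253.3, 315.8 and 253.4 CPM against 169.7 to 232 CPM in batch 2. The ST L2FC of Xbp1 was 0.29 (adjusted p = 0.34) and 0.26 (adjusted p = 0.23), and it was not called there either.

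In the same diclofenac wells the hepatocyte markers summed to 7132 to 9467 CPM in batch 1 and 7003 to 8803 CPM in batch 2, far below vehicle, and all 7 tested markers were called lower. Kupffer and leukocyte markers summed to 52.5 to 61.1 and 28.4 to 37.1 CPM, below vehicle, with 3 of 5 tested markers called lower and 1 higher. Both tested cholangiocyte markers and 1 of 2 stellate and fibroblast markers were called lower. Their part in the rise of these genes was not tested. The 5 calls stood when 1 vehicle well was left out, and when 1 treated well was. A treated well was always left out together with the wells of the same number in every other treatment of its batch, here and in what follows.

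Indomethacin, another NSAID, moved the same 5 genes at 300 µM, where 16% of all genes were called higher. The median L2FC of the 6 genes was 2.05, against 0.04 over all genes. Dnajc3 read 3674, 3352 and 3732 CPM in batch 1 and 2260, 2223 and 3090 CPM in batch 2, above all vehicle wells. Its L2FC was 2.40 ± 0.13 (adjusted p = 9.5e-25) and 2.09 ± 0.10 (adjusted p = 9.3e-31). Creld2 read 456, 397 and 486 CPM and 297, 244 and 308 CPM, with an L2FC of 2.55 ± 0.16 (adjusted p = 4.6e-22) and 2.00 ± 0.10 (adjusted p = 8.8e-28).

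Hspa5 varied more between indomethacin wells than any other of these genes, at 143, 104 and 61.7 CPM in batch 1 and 31.5, 77.7 and 144.5 CPM in batch 2. Even the lowest of these wells stayed above every vehicle well of its batch, and the L2FC was 2.36 ± 0.44 (adjusted p = 8.9e-06) and 3.08 ± 0.42 (adjusted p = 3.1e-09). Hyou1 read 249, 247 and 347 CPM and 328, 232 and 195 CPM, with an L2FC of 2.11 ± 0.26 (adjusted p = 3.3e-10) and 1.61 ± 0.14 (adjusted p = 3.7e-16). Herpud1 read 2202, 2254 and 2467 CPM in batch 1 and 1538, 1455 and 975 CPM in batch 2. Its rise was larger in the first rat, with an L2FC of 2.12 ± 0.18 (adjusted p = 1.8e-16) against 1.34 ± 0.11 (adjusted p = 2.6e-18), and the difference between the batches was called (-0.78, adjusted p = 0.0069), as it was for 2.5% of all genes.

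Xbp1 was again not called under indomethacin. Its wells at 45.6, 61.9 and 77.2 CPM and at 74.8, 41.1 and 35.7 CPM overlapped vehicle in both batches, with an L2FC of 0.11 ± 0.34 (adjusted p = 0.82) and -0.41 ± 0.25 (adjusted p = 0.18). From well to well Xbp1 ran in the opposite order to Hspa5 in both batches. The hepatocyte markers summed to 26750 to 29689 CPM in batch 1 and 23840 to 27905 CPM in batch 2, and Kupffer and leukocyte markers to 33.1 to 49.6 and 20.2 to 22.4 CPM, all below vehicle. Of the 7 hepatocyte markers tested, 1 was called lower and 1 higher, and of the 5 Kupffer and leukocyte markers 3 were called lower. Stellate and fibroblast markers summed to 55.4 to 74.3 and 15.4 to 17.3 CPM, and cholangiocyte markers to 15.98 to 17.9 and 16.7 to 24.7 CPM, with 1 of 2 tested markers called lower in each list. Their part in the result was not tested. Here too the 5 calls stood in each of these settings. The study measured cell viability by ATP and found it lowest with valproic acid and indomethacin at their high concentrations, followed by high diclofenac. The part of viability in these results was not tested.

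**Figure D3:**
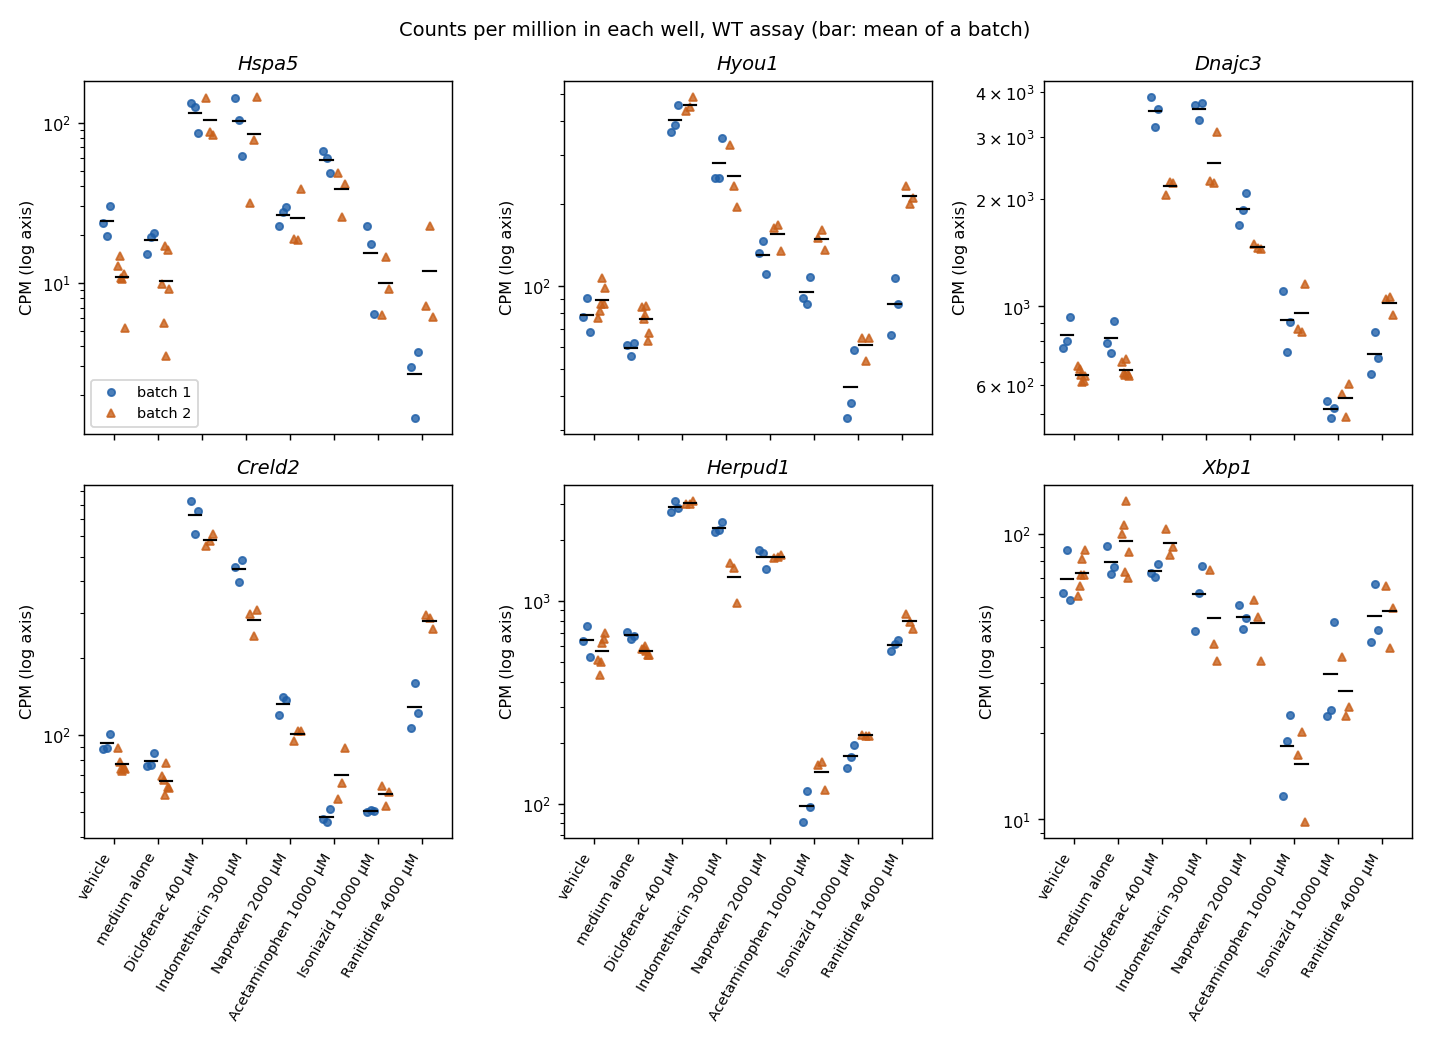
CPM in the WT assay (log axis) of the 6 measured genes in each well of vehicle, medium alone and 6 high concentrations, with batch 1 as blue circles, batch 2 as orange triangles and a bar at the mean of each batch. For 5 genes the diclofenac 400 µM and indomethacin 300 µM wells lie above all vehicle wells of their batch, and Xbp1 overlaps them, while Herpud1 and Xbp1 lie below vehicle in every acetaminophen and isoniazid well.

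Isoniazid, an antituberculosis drug, lowered Herpud1, Xbp1, Creld2, Hyou1 and Dnajc3 in both batches, and Hspa5 was not called. At 10000 µM, 5 of the 6 genes were called lower, against 8.09% of all genes, and the median L2FC of the 6 was -0.71 against 0.00 over all genes. Herpud1 fell most, to 150, 171 and 195 CPM in batch 1 and 219, 217 and 217 CPM in batch 2, below every vehicle well. Its L2FC was -1.90 ± 0.18 (adjusted p = 9.0e-14) and -1.46 ± 0.12 (adjusted p = 2.5e-17). Xbp1 fell to 23.1, 24.2 and 49.2 CPM and to 37.0, 23.0 and 24.7 CPM, also below every vehicle well, with an L2FC of -1.11 ± 0.35 (adjusted p = 0.017) and -1.46 ± 0.27 (adjusted p = 1.4e-05).

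Creld2, Hyou1 and Dnajc3 were also called lower with isoniazid. Creld2 read 49.98, 50.8 and 50.5 CPM in batch 1 and 63.4, 52.9 and 60.1 CPM in batch 2, with an L2FC of -0.88 ± 0.16 (adjusted p = 1.5e-05) and -0.47 ± 0.11 (adjusted p = 8.8e-04). Hyou1 read 33.2, 37.6 and 58.7 CPM and 65.0, 53.8 and 64.7 CPM, with an L2FC of -0.87 ± 0.26 (adjusted p = 0.011) and -0.63 ± 0.16 (adjusted p = 1.0e-03). Dnajc3 read 543, 485 and 518 CPM and 567, 491 and 606 CPM, with an L2FC of -0.69 ± 0.13 (adjusted p = 2.6e-05) and -0.29 ± 0.10 (adjusted p = 0.025). The wells of all 3 genes lay below the vehicle wells of their batch. Hspa5 was not called, its wells at 22.5, 17.5 and 6.36 CPM and 6.27, 14.5 and 9.14 CPM overlapping vehicle (L2FC -0.66 ± 0.46, adjusted p = 0.35, and -0.21 ± 0.50, adjusted p = 0.80).

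Some of these isoniazid calls changed when wells were left out. Hyou1 and Xbp1 missed the threshold without batch 1 treated replicate 1 (mean L2FC -0.66 and -1.18), without batch 1 treated replicate 2 (-0.70 and -1.19) and without batch 1 vehicle replicate 2 (-0.69 and -1.18). Dnajc3 missed it without batch 2 treated replicate 1 (-0.49) or 2 (-0.45), and Creld2 without batch 2 treated replicate 2 (-0.63). Dnajc3 also missed it with library totals in place of TMM (trimmed mean of M values) scaling (-0.45) and with no filter on low counts (-0.49). Herpud1 was called in each of these settings. The hepatocyte markers summed to 28066 to 30719 CPM in batch 1 and 25292 to 30485 CPM in batch 2, below vehicle, with 4 of 7 tested markers called lower, while Kupffer and leukocyte markers at 88.6 to 228 and 66.2 to 78.1 CPM overlapped vehicle. Of 2 tested stellate and fibroblast markers 1 was called lower, and of 2 cholangiocyte markers 1 was called higher. Their part in the fall was not tested.

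Acetaminophen, an analgesic that the study classes with the NSAIDs, gave the largest share of calls over all genes of the 28 treatments, and calls in both directions among the 6 genes. At 10000 µM 61.1% of all genes were called, 30.4% higher and 30.7% lower. Of the 6 genes, Hspa5, Hyou1 and Dnajc3 were called higher and Herpud1 and Xbp1 lower. The 2 lower calls are near the background share, so neither they nor the mix of directions is a result about the group. Hspa5 read 66.5, 59.8 and 48.5 CPM in batch 1 and 48.3, 25.8 and 41.4 CPM in batch 2, above every vehicle well, with an L2FC of 1.69 ± 0.44 (adjusted p = 5.3e-04) and 2.25 ± 0.43 (adjusted p = 2.9e-06). Herpud1 fell to 81.3, 116 and 96.2 CPM and to 155, 160 and 117 CPM, the lowest batch means of this gene among all treatments, with an L2FC of -2.27 ± 0.18 (adjusted p = 4.9e-18) and -1.57 ± 0.12 (adjusted p = 4.3e-20). Xbp1 fell to 12.1, 18.8 and 23.2 CPM and to 16.8, 20.3 and 9.80 CPM, with an L2FC of -1.48 ± 0.37 (adjusted p = 3.6e-04) and -1.82 ± 0.28 (adjusted p = 3.2e-08).

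Hyou1 and Dnajc3 were also called higher with acetaminophen, and Creld2 was not called. Hyou1 read 90.7, 86.4 and 108 CPM in batch 1, overlapping vehicle, and 150, 160 and 136 CPM in batch 2, above it, with an L2FC of 0.71 ± 0.26 (adjusted p = 0.012) and 1.15 ± 0.14 (adjusted p = 5.0e-11). Dnajc3 read 1103, 746 and 906 CPM in batch 1, overlapping vehicle, and 867, 847 and 1155 CPM in batch 2, above it, with an L2FC of 0.58 ± 0.13 (adjusted p = 5.7e-05) and 1.01 ± 0.10 (adjusted p = 5.7e-15). Creld2 passed the threshold in both batches in opposite directions, at 47.0, 45.7 and 51.1 CPM in batch 1 (L2FC -0.51 ± 0.16, adjusted p = 0.0041) and 56.1, 64.8 and 88.7 CPM in batch 2 (L2FC 0.30 ± 0.11, adjusted p = 0.013).

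Scaling mattered for acetaminophen. In batch 2 the median of Creld2 was lower with acetaminophen than with vehicle in CPM (64.8 against 74.2), although its L2FC after TMM scaling was above 0. With library totals in place of TMM the median L2FC of the 6 genes was -0.09 instead of 0.34, and Hspa5 was the only gene still called higher. Hyou1 was also lost without batch 1 treated replicate 3 (mean L2FC 0.87) or batch 1 vehicle replicate 3 (0.87). The hepatocyte markers summed to 23315 to 26706 CPM in batch 1 and 27069 to 36406 CPM in batch 2, below vehicle, with 3 of 7 tested markers called lower. Kupffer and leukocyte markers summed to 50.8 to 68.1 and 37.5 to 42.7 CPM, with 2 of 5 tested called lower and 1 higher. Stellate and fibroblast markers summed to 22.8 to 44.5 and 10.65 to 17.1 CPM, with both tested markers called lower. Cholangiocyte markers summed to 14.3 to 32.4 and 20.3 to 30.6 CPM, below vehicle, with 0 of 2 tested called by edgeR or DESeq2. Their part in the result was not tested.

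Naproxen, also an NSAID, raised 4 of the 6 genes at 2000 µM, against 14.9% of all genes. Herpud1 read 1789, 1719 and 1445 CPM in batch 1 and 1635, 1645 and 1696 CPM in batch 2, all above vehicle, with an L2FC of 1.38 ± 0.17 (adjusted p = 7.0e-10) and 1.59 ± 0.11 (adjusted p = 1.8e-22). Dnajc3 read 1690, 1868 and 2082 CPM and 1498, 1463 and 1452 CPM, also all above vehicle, with an L2FC of 1.19 ± 0.13 (adjusted p = 4.7e-12) and 1.24 ± 0.10 (adjusted p = 1.6e-18). Hyou1 rose as well (L2FC 0.73 ± 0.25, adjusted p = 0.017, and 0.85 ± 0.14, adjusted p = 9.2e-07), and so did Creld2 (0.52 ± 0.16, adjusted p = 0.0050, and 0.44 ± 0.11, adjusted p = 5.4e-04). Hspa5 passed in batch 2 alone, with an L2FC of 1.26 (adjusted p = 0.015) against 0.14 (adjusted p = 0.84) in batch 1. The Hyou1 call was lost without batch 1 treated replicate 2 (mean L2FC 0.74) or batch 1 vehicle replicate 3 (0.73). In the naproxen wells the hepatocyte markers summed to 20036 to 21084 CPM in batch 1 and 20004 to 20947 CPM in batch 2, with 5 of 7 tested markers called lower. Kupffer and leukocyte markers summed to 62.7 to 66.4 and 26.5 to 32.55 CPM (2 of 5 lower), and cholangiocyte markers to 11.45 to 16.2 and 9.69 to 12.2 CPM (1 of 2 lower), all below vehicle, and 1 of 2 stellate and fibroblast markers was called lower. Their part in the result was not tested. The concentrations of the NSAIDs differed, so the drugs were not compared with each other.

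With WY14643, an agonist of the nuclear receptor Ppara, the same 3 genes were called higher at both concentrations, namely Hspa5, Herpud1 and Dnajc3. The shares of all genes called higher were 15.7% at 8 µM and 15.1% at 200 µM. Herpud1 read 1314, 1215 and 1119 CPM in batch 1 and 882, 820 and 846 CPM in batch 2 at 8 µM, above every vehicle well, with an L2FC of 1.31 ± 0.17 (adjusted p = 2.8e-09) and 0.78 ± 0.11 (adjusted p = 2.8e-09). At 200 µM it read 1346, 1394 and 1459 CPM and 1093, 1028 and 1028 CPM, with an L2FC of 1.45 ± 0.17 (adjusted p = 1.0e-10) and 1.06 ± 0.11 (adjusted p = 4.7e-14). Hspa5 rose by an L2FC of 1.08 ± 0.44 (adjusted p = 0.045) and 1.82 ± 0.43 (adjusted p = 3.0e-04) at 8 µM, and of 1.33 ± 0.43 (adjusted p = 0.011) and 1.42 ± 0.44 (adjusted p = 0.0059) at 200 µM. After TMM scaling Dnajc3 had an L2FC of 0.38 ± 0.13 (adjusted p = 0.015) and 0.61 ± 0.10 (adjusted p = 3.2e-07) at 8 µM. At 200 µM its L2FC was 1.13 ± 0.13 (adjusted p = 2.3e-11) and 0.75 ± 0.10 (adjusted p = 1.2e-09). The comparison of 200 with 8 µM called 0 of the 6 genes with edgeR and with DESeq2, and 1 at an unadjusted p under 0.05, where 1.17% of all genes were called. The calls of Hspa5 were the least firm. The call at 8 µM was lost without batch 1 treated replicate 2 (mean L2FC 1.26) or 3 (1.48) and without any 1 of the 3 batch 1 vehicle wells (1.39 to 1.52), with DESeq2 (1.46) and with library totals (1.15). The call at 200 µM was lost without batch 1 treated replicate 1 (1.14), batch 1 vehicle replicate 2 (1.31) or batch 2 treated replicate 2 (1.22), and with library totals (1.11). Dnajc3 at 8 µM was lost without batch 1 treated replicate 1 (0.46) or 3 (0.46) or batch 1 vehicle replicate 1 (0.47), and with library totals (0.20). The hepatocyte markers summed to 38410 to 38712 and 37809 to 39771 CPM at 8 µM and to 31005 to 34054 and 34797 to 35904 CPM at 200 µM, below vehicle except in batch 1 at 8 µM, with 1 of 7 tested markers called higher and 1 lower at each concentration. Kupffer and leukocyte markers summed to 91.8 to 99.7 and 53.1 to 67.9 CPM at 8 µM, overlapping vehicle. At 200 µM they summed to 65.96 to 94.7 CPM in batch 1, overlapping vehicle, and to 45.1 to 59.3 CPM in batch 2, below it. At both concentrations 1 of 2 cholangiocyte markers was called higher, and their part in the result was not tested.

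Ranitidine, a histamine H2 receptor blocker, gave the largest difference between the batches, which was called for 13% of all genes here and for 2.36% over all treatments. At 4000 µM 1 of the 6 genes was called higher, below the 20.6% of all genes and so no result about the group. This gene was Creld2. It read 106, 160 and 122 CPM in batch 1 and 295, 286 and 261 CPM in batch 2, above every vehicle well, with an L2FC of 0.63 ± 0.16 (adjusted p = 5.0e-04) and 1.94 ± 0.10 (adjusted p = 1.5e-27). Hspa5 fell to 3.00, 1.42 and 3.68 CPM in batch 1, below every vehicle well, from 8 to 22 counts a well against 107 to 196 counts with vehicle (L2FC -3.0 ± 0.58, adjusted p = 1.1e-05). In batch 2 its wells at 7.13, 22.5 and 6.07 CPM overlapped vehicle (L2FC 0.18 ± 0.47, adjusted p = 0.76). The same lysates gave the same pattern in the ST assay, where the Hspa5 L2FC was -1.88 and 0.71. Hyou1 and Dnajc3 rose in batch 2 alone, with an L2FC of 1.33 (adjusted p = 4.6e-13) and 0.74 (adjusted p = 9.6e-10), against 0.28 (adjusted p = 0.36) and -0.02 (adjusted p = 0.90) in batch 1. The hepatocyte markers summed to 14001 to 17799 CPM in batch 1 and 12015 to 13073 CPM in batch 2, with 6 of 7 tested markers called lower. Kupffer and leukocyte markers summed to 62.1 to 69.5 and 34.7 to 38.6 CPM (3 of 5 lower, 1 higher), both tested stellate and fibroblast markers were called lower, and of 2 cholangiocyte markers 1 was called lower and 1 higher. Their part in the result was not tested.

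In the remaining high treatments the calls were few. Caffeine at 10000 µM raised Dnajc3 (L2FC 0.73 and 0.52) and Hyou1 (0.59 and 0.90), 2 of 6 genes against 21.7% of all genes. Valproic acid at 10000 µM raised Dnajc3 (0.47 and 0.89), where 22% of all genes were called higher, and lowered Xbp1 (-1.0 and -0.85), where 21% were called lower. Ketoconazole at 15 µM lowered Xbp1 (-1.49 and -0.96) and Herpud1 (-0.90 and -0.75), 2 of 6 genes against 13.4%. Sulfasalazine at 100 µM raised Dnajc3 (0.55 and 0.58), 1 of 6 against 7.59%. For caffeine and valproic acid these shares are near or below the background and are no result about the group. The hepatocyte markers lay below vehicle in 3 of these treatments. They summed to 22720 to 25139 and 18489 to 24676 CPM with caffeine (4 of 7 lower, 2 higher), to 18716 to 22556 and 15817 to 17423 CPM with valproic acid (7 of 7 lower), and to 19859 to 20704 and 21182 to 23391 CPM with ketoconazole (5 of 7 lower). Kupffer and leukocyte markers were also below vehicle, at 17.6 to 24.2 and 9.44 to 19.5 CPM with caffeine (4 of 5 lower), 58.9 to 62.6 and 36.4 to 39.8 CPM with valproic acid (4 of 5 lower), and 58.7 to 74.6 and 31.4 to 39.8 CPM with ketoconazole (2 of 5 lower, 1 higher). Of 2 stellate and fibroblast markers 2 were lower with caffeine and 1 with valproic acid, where 1 of 2 cholangiocyte markers was higher. With sulfasalazine 1 of 7 hepatocyte markers was called higher. The part of these markers in the results was not tested. The caffeine call of Hyou1 was lost without batch 1 treated replicate 2 (mean L2FC 0.75) or 3 (0.67), without batch 1 vehicle replicate 1 (0.75) or 3 (0.69), with DESeq2 (0.71), with RLE (relative log expression) size factors (0.71) and with library totals (0.58). The valproic acid call of Xbp1 was lost without batch 1 vehicle replicate 2 (-0.82) or batch 2 treated replicate 2 (-0.85). Chloramphenicol at 450 µM, doxorubicin at 2 µM and simvastatin at 60 µM had 0 of the 6 genes called by edgeR or DESeq2, with 1, 2 and 1 genes at an unadjusted p under 0.05 in both batches. Over all genes 7.25%, 4.56% and 7.74% were called with these 3 chemicals. In the ST assay Herpud1 was called lower with chloramphenicol at 450 µM (ST L2FC -0.55, adjusted p = 0.0085, and -0.61, adjusted p = 1.1e-06), where its WT L2FC was -0.41 (adjusted p = 0.13) and -0.73 (adjusted p = 3.3e-07).

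At the low concentrations 5 of 84 pairs were called higher, against 1.93% of all such pairs. Next to the 3 of WY14643 at 8 µM these were Herpud1 with valproic acid at 400 µM (L2FC 0.65 and 0.63, where 6.63% of all genes were called higher) and Dnajc3 with sulfasalazine at 4 µM (0.45 and 0.38, where 0.677% were). The call with sulfasalazine was lost without any 1 batch 1 treated well, without batch 1 vehicle replicate 1 or 2 and without batch 2 treated replicate 2 (mean L2FC 0.39 to 0.44), and also with library totals (0.39) and with no filter on low counts (0.41). The call with valproic acid was lost without batch 1 treated replicate 2 (0.60) or batch 1 vehicle replicate 3 (0.57). No pair was called lower at the low concentrations, also at an unadjusted p under 0.05 or with DESeq2 (0 of 84 each), where 1.44% of all pairs were. Medium alone called 0 of the 6 genes by edgeR, by DESeq2 and at an unadjusted p under 0.05, against 1.05% of all genes higher and 0.206% lower. The mean L2FC of the 6 genes in medium alone ran from -0.22 for Hyou1 to 0.39 for Xbp1.

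Set directly against the low concentration of the same chemical, the high concentration gave 17 higher and 8 lower pairs of 84, against 11.3% and 11.6% of all pairs. Diclofenac raised the same 5 genes (23.7% of all genes were higher), with an L2FC from 1.36 for Dnajc3 in batch 2 to 3.13 for Hspa5 in batch 2. Indomethacin raised the same 5 genes as well (10.6%), with an L2FC from 1.18 for Herpud1 in batch 2 to 2.35 for Hspa5 in batch 2. Isoniazid lowered Herpud1, Xbp1, Hyou1 and Creld2 (7.35%), most of all Herpud1 with an L2FC of -1.93 and -1.55. Acetaminophen raised Hspa5, Hyou1 and Dnajc3 (28.1%) and lowered Herpud1 and Xbp1 (28.3%). These comparisons share the high-concentration wells with those against vehicle.

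The ST assay read the same lysates, so it checks the measurement and adds no samples. Its probes for Hspa5, Hyou1, Creld2, Herpud1 and Xbp1 bear the same probe numbers as those of the WT assay. Of the 26 called pairs at high concentrations that both assays measured, 25 were called in the same direction in the ST assay and all 26 had the same sign in every batch. The ST assay called 2 pairs at high concentrations that the WT assay did not, Herpud1 lower with chloramphenicol at 450 µM and Herpud1 higher with caffeine at 10000 µM (ST L2FC 0.61 and 0.22). The level of a gene differed between assays. Hspa5 with vehicle read 468 to 735 CPM in batch 1 and 192 to 385 CPM in batch 2 of the ST assay, against 19.5 to 30.2 and 5.18 to 14.7 CPM in the WT assay. The ST wells with diclofenac at 400 µM read 5508, 4612 and 3068 CPM and 5648, 4372 and 3945 CPM for Hspa5. These wells lay far above vehicle, with an ST L2FC of 2.62 and 3.59. Levels of different probes were not compared, since probes differ in how well they bind and ligate.

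**Figure D4:**
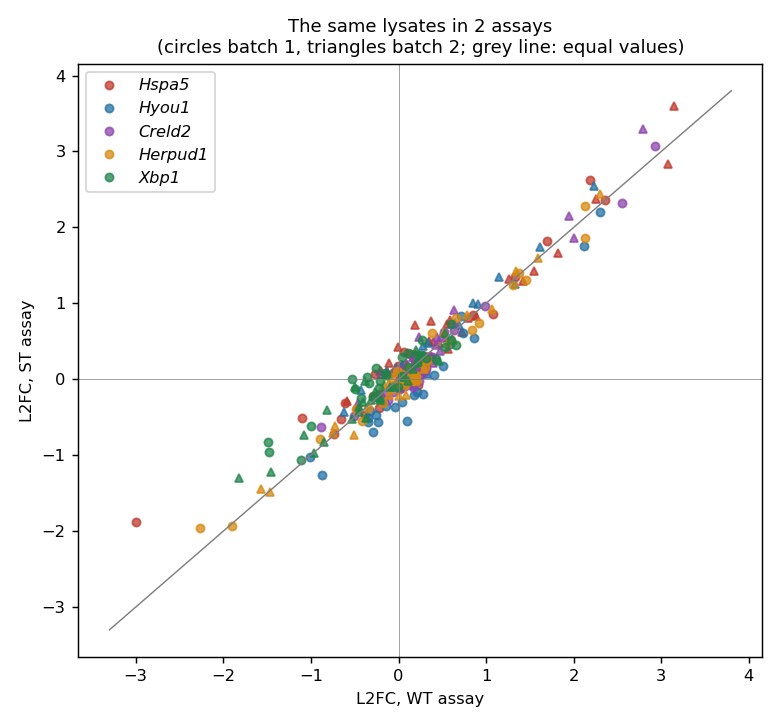
L2FC from vehicle in the WT assay (x axis) and in the ST assay (y axis) for the 5 genes measured in both, 1 point per treatment and batch, with circles for batch 1, triangles for batch 2 and a grey line at equal values. The points follow the line, with Creld2 and Hspa5 under diclofenac 400 µM at the top and Hspa5 under ranitidine 4000 µM in batch 1 at the far left, at -3.0 in the WT and -1.88 in the ST assay.

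Lists of other genes of the ER and of the UPR were described in the 4 treatments in which 5 of the 6 genes were called. The counts are to be read against the shares of all genes called, which were 25.2% higher and 24.5% lower with diclofenac at 400 µM, 16% and 14.3% with indomethacin at 300 µM, 6.27% and 8.09% with isoniazid at 10000 µM, and 30.4% and 30.7% with acetaminophen at 10000 µM. Among genes of folding in the ER lumen (15 of 18 tested), 7 rose with diclofenac at 400 µM, 8 rose with indomethacin at 300 µM and 6 fell with isoniazid at 10000 µM. The median L2FC of this list was 0.38, 0.49 and -0.44, against 0.04, 0.04 and 0.00 over all genes. Hsp90b1, the Hsp90 chaperone of the ER, rose with diclofenac (L2FC 1.82 and 1.46) and with indomethacin (2.02 and 1.13). Calr, the lectin chaperone calreticulin, rose with diclofenac (1.06 and 1.11). Ero1a, an oxidase that restores disulfide isomerases, rose with indomethacin (2.07 and 1.82). With isoniazid the related Ero1b (-0.78 and -1.11) and the disulfide isomerase Pdia5 (-0.73 and -1.04) fell. With acetaminophen at 10000 µM, 4 genes were higher, a share near that of all genes, and 8 lower, with a median of -0.60 (all genes -0.02). Txndc5 (-2.18 and -1.91) and Pdia5 (-2.07 and -1.91) fell most.

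In ER-associated degradation, the pathway in which Herpud1 acts, 13 of 14 genes were tested. With diclofenac 7 rose and 1 fell (median 0.72), with indomethacin 8 rose (median 0.42), with acetaminophen 5 rose and 5 fell (median -0.20), near the 30.4% and 30.7% of all genes, and with isoniazid 4 fell (median -0.27). Selenos (diclofenac 2.39 and 2.37, indomethacin 1.43 and 1.13) and Sel1l (2.15 and 1.90, 1.82 and 1.34), partners of the ubiquitin ligase Syvn1, led the rise. Edem1, which hands misfolded glycoproteins to degradation, fell with isoniazid (-1.85 and -2.0) and with acetaminophen (-1.75 and -1.15), where Edem2 fell too (-2.36 and -2.09). Syvn1 fell with isoniazid (-0.58 and -0.58).

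Genes of translocation and N-glycosylation (14 of 18 tested) are described next. With diclofenac 5 rose, led by the translocon genes Sec61g (0.66 and 0.92) and Ssr3 (0.57 and 0.73), and the median was 0.46, but DESeq2 called 3 higher and 1 lower. With indomethacin 8 rose, led by the signal peptidase gene Spcs3 (1.12 and 0.77) and Ssr4 (0.95 and 0.63), with a median of 0.60. With isoniazid 2 fell, Spcs2 (-0.67 and -0.58) and Rpn1 (-0.64 and -0.49), with a median of -0.42. With acetaminophen 4 rose and 4 fell around a median of -0.02, near all genes in both shares and in the median, and Sec61b (-2.30 and -1.60) and Rpn1, a subunit of the oligosaccharyltransferase (-1.92 and -1.50), fell most.

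Of the UPR sensors and their proteases, 5 of 6 were tested. Atf6 rose with diclofenac (2.11 and 2.06), indomethacin (1.42 and 1.60) and acetaminophen (2.41 and 2.32), and Ern1, which encodes Ire1, rose with the same 3 treatments (1.62 and 1.91, 0.69 and 1.02, 0.99 and 1.08). In each of these treatments 2 genes of this list rose and 1 fell. With isoniazid 1 fell, the protease gene Mbtps1 (-0.36 and -0.43). These are levels of transcript and say nothing of activated protein.

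In the Perk and Atf4 arm 13 of 14 genes were tested. With diclofenac 9 rose and 2 fell (median 1.48), and Ddit3, which encodes the stress transcription factor Chop, had an L2FC of 6.59 and 5.95, followed by the phosphatase subunit gene Ppp1r15a (3.26 and 3.27). With indomethacin 9 rose (median 0.62), led by Ddit3 (3.79 and 4.04) and the pseudokinase gene Trib3 (1.99 and 2.37). With acetaminophen 6 rose and 3 fell (median 0.24), against 30.4% and 30.7% of all genes, and the largest changes were in Psat1, an enzyme of serine synthesis (-4.02 and -3.36), and Atf3 (3.15 and 3.06). With isoniazid 1 rose and 5 fell (median -0.38), led by Chac1 (-2.30 and -1.65) and Atf5 (-1.82 and -1.24). Cytosolic and mitochondrial chaperones (8 of 11 tested) rose with 3 of the treatments, 6 with diclofenac, 5 with indomethacin and 5 with acetaminophen (median 1.05, 0.61 and 1.23). Hspb1 (2.39 and 1.28) and Hspe1 (1.03 and 1.62) led with diclofenac, Hspe1 (1.03 and 1.31) and Hspd1 (0.89 and 1.23) with indomethacin, and Hspa1a (5.21 and 4.42) and Dnajb1 (2.19 and 2.72) with acetaminophen. With isoniazid 0 of these 8 were called by edgeR and 0 by DESeq2, and 1 passed at an unadjusted p under 0.05 (median -0.08).

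**Figure D5:**
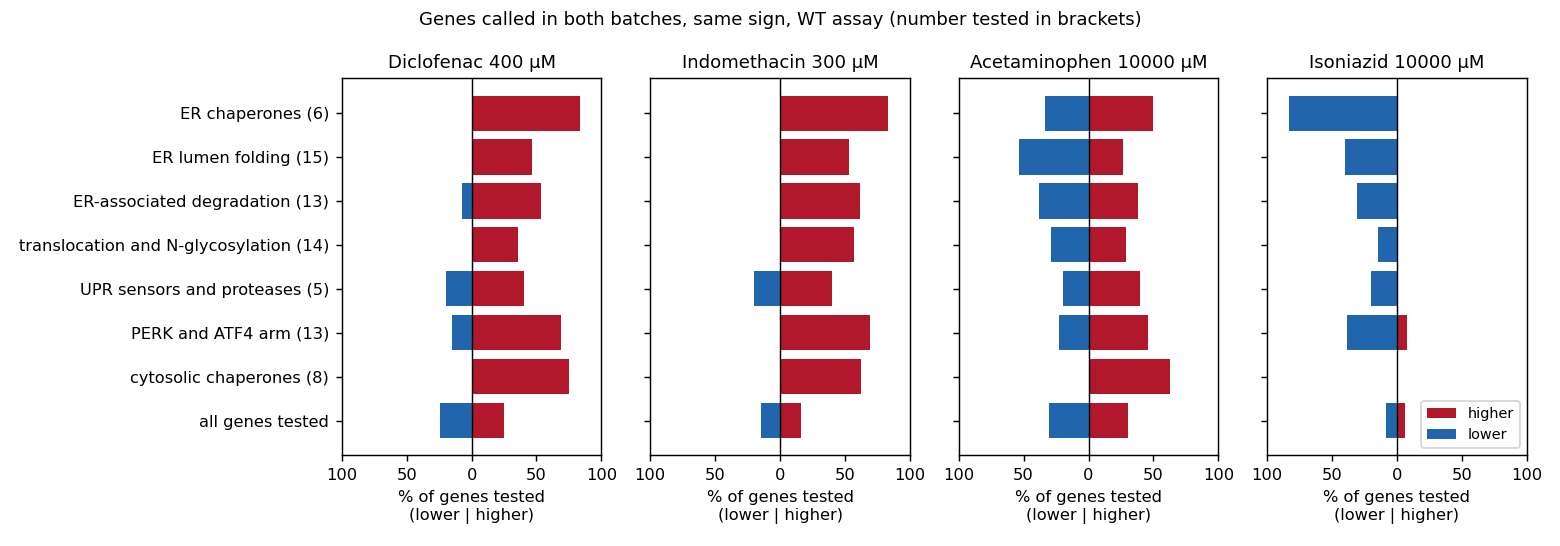
Share of the genes tested that were called higher (red, to the right) or lower (blue, to the left) in both batches of the WT assay, for the 6 measured genes (marked ER chaperones), 6 lists of related genes and all 10191 genes, in 4 treatments. The bars point mostly right for diclofenac and indomethacin and left for isoniazid, where 5 of the 6 measured genes were lower against 8.09% of all genes, and to both sides for acetaminophen.

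Across the 30 groups of a batch (28 treatments, vehicle and medium alone) the 6 genes were alike to different degrees. As a description over groups that share rats, plates and depth, and with no test, Hyou1 and Creld2 had a Pearson r of 0.88 in batch 1 and 0.86 in batch 2, and Hyou1 and Dnajc3 of 0.88 and 0.79. Hspa5 followed Dnajc3 most closely (0.72 and 0.75). Xbp1 stood apart from Hspa5 (-0.12 and -0.27) and Dnajc3 (0.08 and -0.17) and was nearest to Herpud1 (0.50 and 0.46). Hspa5 and Xbp1 also ran in opposite order between wells of one treatment in some groups. With caffeine at 400 µM in batch 1, Hspa5 read 40.4, 6.56 and 17.4 CPM and Xbp1 34.9, 134.9 and 69.8 CPM. With diclofenac at 400 µM in batch 2 both were highest in the same well. The part of such wells in the r was not tested. Outside the group, the 10 genes whose level followed the median of the 6 most closely in both batches were Kdelr2, Ficd, Copb1, Arcn1, Sec22b, Syvn1, Sel1l, Tvp23b, Yipf5 and Selenos. Kdelr2, the receptor that returns KDEL-tagged proteins to the ER, had an r of 0.89 and 0.86, and Ficd, the enzyme that AMPylates BiP, 0.85 and 0.83. The lowest of the 10, Selenos, had 0.86 and 0.79. Hyou1 itself had 0.94 and 0.92 with this median, of which it is a part, and Xbp1 0.33 and 0.14.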

How the data were processed

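TempO-Seq libraries of 186 wells were made with the WT and the ST assay. The authors aligned reads to rn6 with STAR 2.5.3a, allowing 2 mismatches, and deposited raw counts per probe made with TempO-SeqR. Probes of a gene were added. A filter kept genes averaging 10 counts or more, 10191 in the WT and 1760 in the ST assay. Each batch was fitted alone in edgeR 4.0.16 (R 4.3.3) by quasi-likelihood, with TMM scaling and all 30 groups in one fit, with Benjamini-Hochberg adjustment over all genes tested. The SE is the L2FC divided by the square root of F. The deposited labels give no replicate numbers, so wells were numbered in accession order. DESeq2 1.42.0 and other settings were alternatives. All 10 genes were to be named, and from each list up to 2 called genes per treatment with the largest mean L2FC in size. The genes and lists were chosen with earlier results of these data known. Promoters are from RefSeq, build GRCr8.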

Additional observations from a re-analysis of the deposited data

Results flagged for a closer look

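For 13 of 174 combinations of a gene and a treatment (7.47%), the effect differed between the 2 batches in a joint edgeR fit with a term for the difference, where 2.36% of all genes and treatments did. Each difference is the L2FC in batch 2 minus that in batch 1. With ranitidine at 4000 µM, where 13% of all genes differed, it was 3.17 for Hspa5 (adjusted p = 0.0028), 1.30 for Creld2 (adjusted p = 2.7e-08), 1.03 for Hyou1 (adjusted p = 0.0058) and 0.75 for Dnajc3 (adjusted p = 4.7e-04). With acetaminophen at 10000 µM (6.47% of all genes) it was 0.82 for Creld2 (adjusted p = 0.0016) and 0.70 for Herpud1 (adjusted p = 0.010). With valproic acid at 10000 µM (8.63%) it was 0.93 for Hyou1 (adjusted p = 0.019) and 0.56 for Creld2 (adjusted p = 0.036). With ketoconazole at 15 µM (3.29%) it was 0.89 for Dnajc3 (adjusted p = 8.5e-05) and 0.62 for Creld2 (adjusted p = 0.037). The sign was negative for Herpud1 with indomethacin at 300 µM (-0.78, adjusted p = 0.0069) and with sulfasalazine at 100 µM (-0.76, adjusted p = 0.014), and for Creld2 with WY14643 at 200 µM (-0.74, adjusted p = 0.018). Each batch was 1 rat, so rat and batch cannot be told apart. None of the 12 groups of 4 to 10 wells that were tested held a well far from the others by Dixon's criterion. The groups of 3 wells, which include every treated group, were too small to be tested.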

How the results depend on the processing

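Of the 40 called pairs of a gene and a treatment, 38 were called with DESeq2, 39 with RLE size factors, 32 with library totals alone, 38 with no filter on low counts, 40 against batch 2 vehicle wells of the same plate, and 20 when an absolute L2FC of at least 1 was also asked for. None changed direction in these settings. Library totals moved the median L2FC of all genes by up to 0.44, the other scalings by at most 0.07. With library totals, low concentrations gave 2 higher and 2 lower pairs, and acetaminophen 1 gene higher. With no filter they gave 1 lower pair. With the L2FC limit, high concentrations gave 15 higher and 4 lower pairs, low concentrations 1 higher, high against low 11 higher and 4 lower, acetaminophen 1 gene higher and isoniazid 2 lower. Shares of all genes called under these settings are not given, so these counts are no result about the group. The cause was not tested.

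The wells of the groups share no number in the labels, so no wells were paired. The replicate block was the batch, with both rats in one fit and 1 test per gene. With this block all 40 pairs stayed called. Pairs that had passed in each batch could hardly fail here, and the p-values still measure the spread between wells. It is thus no check between animals. At high concentrations the counts were 39 higher and 16 lower, and at low ones 10 higher and 1 lower. High against low gave 27 higher and 17 lower. The fit and the calling rule changed together, and what raised the counts was not tested. Shares of all genes under this rule are not given, so these counts are no result about the group.

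Without 1 vehicle well, or without the treated wells of 1 replicate number in a batch, left out in all treatments at once, high concentrations gave 22 to 26 higher and 7 to 11 lower pairs, low ones 2 to 6 higher, and, without treated wells, high against low 15 to 17 higher and 5 to 10 lower. Acetaminophen gave 2 to 3 genes higher and 2 lower, isoniazid 3 to 5 lower, and diclofenac and indomethacin 5 higher throughout. These ranges show how far the counts moved and are not set against all genes. Total counts limit Hspa5 most, with 30 to 196 counts in a vehicle well.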

Other observations

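Outside the 6 measured genes, 16 of the genes tested had an exact ERSE or ERSE-II match in a RefSeq promoter. This set was chosen after values were seen and is a description. With diclofenac at 400 µM, 7 of the 16 were called higher and 3 lower, with a median L2FC of 0.26, and 25.2% of all genes were higher and 24.5% lower. They include Hsp90b1 (1.82 and 1.46), Calr (1.06 and 1.11) and the lectin chaperone gene Canx (0.50 and 0.54), but also Zfand2a (2.42 and 3.07), which is known from the response to arsenite. With indomethacin at 300 µM, 9 were higher and 2 lower (median 0.52), against 16% and 14.3% of all genes, among them Hsp90b1 (2.02 and 1.13) and Canx (1.23 and 0.63). With isoniazid at 10000 µM, 2 were lower, Hsp90b1 (-0.84 and -0.92) and Ero1b (-0.78 and -1.11), against 8.09% of all genes, and the median was -0.23. With acetaminophen at 10000 µM, 6 were higher and 7 lower (median -0.38), where 30.4% and 30.7% of all genes were, with Calr up (1.47 and 1.74) and Hsp90b1 down (-0.92 and -0.32).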
